A study of Mus musculus with 7 samples.

Results

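The nuclear genes of the mitochondrial respiratory chain and of ATP synthase were examined in the livers of 3 WT and 4 SHIVA mice. Members were all genes on the array whose name starts with Nduf, Uqcr, Cox4 to Cox8 or Atp5, together with Sdha, Sdhb, Sdhc and Sdhd, where several probes carried a gene name the brightest on average was used. They numbered 90 of 36413 gene names, 42 of them named for complex I, 4 for complex II, 8 for complex III, 19 for complex IV and 17 for ATP synthase. WT mice were wildtype C57BL/6, and SHIVA mice carry, on the C57BL/6 background, a missense mutation in the HMG box of Sox17 that arose in an ENU mutagenesis screen. The mutation is in the germline of a single mutant line, is not limited to the liver, and viable carriers are heterozygous. All mice were females of 8 to 12 weeks fasted for 24 h, and the RNA of 1 whole liver went on each array, without pooling. The comparison asks whether genes for oxidative phosphorylation differ between WT and SHIVA livers in the fasted state, in which the liver depends on fatty acid oxidation.

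Complexes I and II pass electrons from NADH and succinate to coenzyme Q, complex III passes them on to cytochrome c, and complex IV hands them to oxygen. Complexes I, III and IV pump protons, and ATP synthase uses the returning protons to make ATP. A few core subunits carry the redox centres or catalytic sites, while many small accessory subunits stabilise the complexes. Most subunits come from nuclear genes and some from mitochondrial DNA, and fasted hepatocytes use this machinery to draw energy for glucose and ketone production from fat.

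Each array detected 44.5% to 48.7% of its probes above background, with 0 saturated spots. Precision is limited by how few arrays there are. Row 1 of the slide held WT and row 2 SHIVA arrays, so that slide position and genotype cannot be told apart. The labels name separate mice, and p-values measure the spread between them. Hepatocyte markers were above background for 9 of 9 genes. In whole liver, fewer cells of a type and less RNA per cell cannot be told apart. Sox17 itself had log2 levels of 4.53, 3.42 and 3.93 in WT and of 4.63, 4.47, 4.77 and 4.71 in SHIVA livers (adjusted p = 0.280). That array value does not check the labels, because a missense change leaves the transcript in place.

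No member passed the test in SHIVA against WT livers. Of the 90 members, 87 were detected above background on 3 or more of the 7 arrays and were tested, and 0 of these were called at an adjusted p under 0.05 in limma, where 0.375% of the 19974 genes tested were called (75 genes; 0.185% higher and 0.19% lower). At an unadjusted p under 0.05 there were 3 members, Ndufaf4, Cox6a2 and Atp5b, against 13.3% of all genes. WT and SHIVA values did not overlap in 4 members, all higher in SHIVA, against 12.2% of all genes, of which 6.14% were higher and 6.02% lower. The log2 fold change passed 0.5 in either direction for 2 members, against 14.9% of all genes.

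The intervals show how large a difference these arrays leave room for. The 95% interval of the fold change lay within 2-fold for 85 of 87 members and within 1.5-fold for 71. Over all genes tested it lay within 2-fold for 15999 and within 1.5-fold for 7842 of 19974. In simulated data with this number of mice and 200 of 19974 genes changed, 0% of genes changed by a log2 value of 0.5 were called. Of genes changed by 1, 32% were called. The simulation took its spread from all genes, so it does not give the share for the members alone.

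Taken by sign, 34 members had a higher and 53 a lower mean in SHIVA livers (39.1% higher, against 48.8% of all genes), with a median log2 fold change of -0.04 against -0.01 for all genes. Single mice set this split. Without WT mouse 1 the median was 0.09 and 66 members were higher, without WT mouse 3 it was -0.12 with 20 higher, and without SHIVA mouse 3 it was 0.02 with 47 higher. The only call that leaving out a mouse produced among members was that of Ndufaf4, without WT mouse 3.

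**Figure D1:**
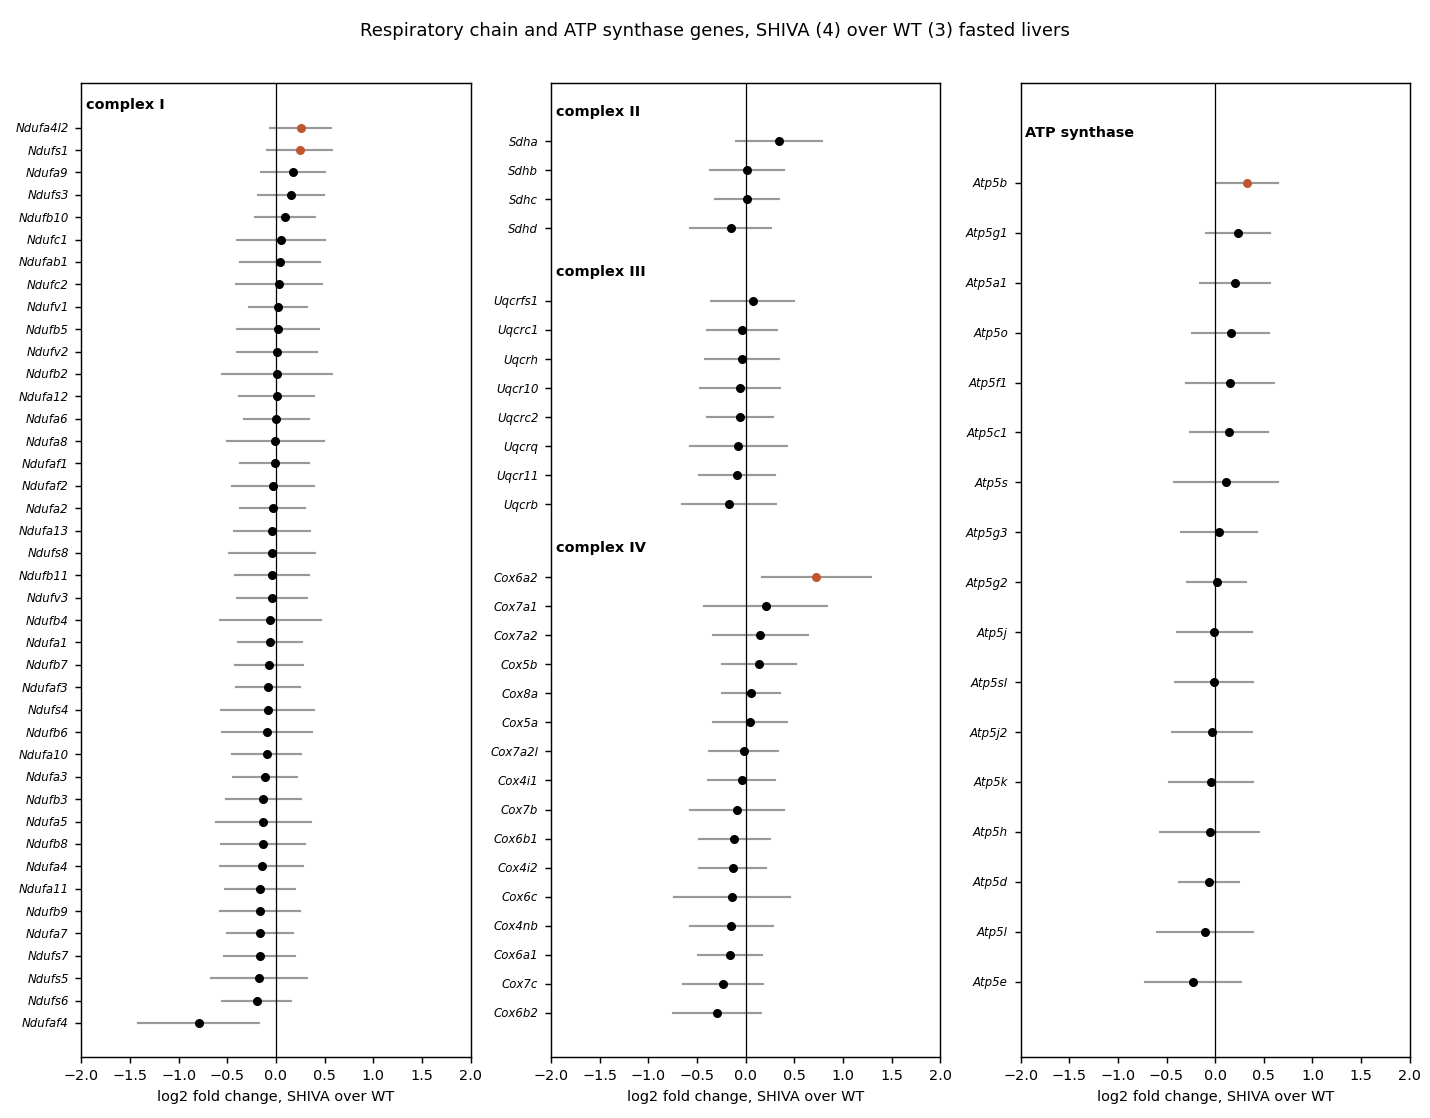
Log2 fold change of SHIVA over WT livers for 86 of the 87 tested members, by complex, with the 95% interval of limma's fit (bars). Orange points mark the 4 members whose WT and SHIVA values do not overlap, all to the right of 0. Most points lie close to 0, and Ndufaf4 at -0.79 and Cox6a2 at 0.73 lie farthest from it.

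Complex I held 42 members, 15 with a higher and 27 with a lower mean in SHIVA livers and a median log2 fold change of -0.04. Apart from Ndufaf4, which is no subunit, its values ran from -0.20 for Ndufs6, an accessory subunit, to 0.25 for Ndufa4l2. Ndufs1, the largest iron-sulfur subunit, lies on the path that electrons take from NADH. The array reads it at bases 63190360 to 63190419 of chromosome 1 (mm9), and log2 levels were 11.89, 12.16 and 12.15 in WT and 12.24, 12.28, 12.23 and 12.50 in SHIVA livers. All 4 SHIVA mice lay above all 3 WT mice, and WT mouse 1 was the lowest. The log2 fold change was 0.24 (SE 0.15, adjusted p = 0.528), a fold of 1.18 with a 95% interval from 0.94 to 1.49. It was 0.16 without WT mouse 1. Of further core subunits in this complex, Ndufv1, which binds NADH, had a log2 fold change of 0.03 and Ndufs7, an iron-sulfur subunit, of -0.17, and neither was called.

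Ndufa4l2, a paralog of Ndufa4 known as a hypoxia-induced gene, is not counted as a subunit of complex I. It had the lowest level of the members named for that complex, but was above background on all 7 arrays. Its probe (chromosome 10, bases 126954149 to 126954208, mm9) gave log2 levels of 6.88, 6.74 and 6.82 in WT and of 7.08, 7.20, 6.89 and 7.10 in SHIVA livers. The genotypes did not overlap, with SHIVA mouse 3 just above WT mouse 1. SHIVA over WT livers gave a log2 fold change of 0.25 (SE 0.14, adjusted p = 0.481). Ndufa4 itself, an abundant protein now placed in complex IV, had a log2 fold change of -0.15.

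Ndufaf4, an assembly factor needed to build complex I, had the largest difference of all members in the fit. Its probe (chromosome 4, bases 24829194 to 24829253, mm9) gave log2 levels of 11.07, 10.83 and 9.86 in WT and of 9.74, 9.69, 9.78 and 9.97 in SHIVA livers. WT mice 1 and 2 stood above every SHIVA mouse, while WT mouse 3 lay among them. The log2 fold change was -0.79 (SE 0.27, adjusted p = 0.262), a fold of 0.577 with a 95% interval from 0.375 to 0.886. Without WT mouse 3 it was -1.16 with an adjusted p of 0.0224, and under the other alternatives the adjusted p ran from 0.199 to 0.585. Its other probe above background gave a difference of means of -0.50. The other assembly factors with this name, Ndufaf1, Ndufaf2 and Ndufaf3, had log2 fold changes of -0.01, -0.03 and -0.08.

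Complex II is the only complex here built wholly from nuclear genes, and it also works in the tricarboxylic acid cycle as succinate dehydrogenase. Its 4 genes had a median log2 fold change of 0.01, with 3 higher. Sdha, the flavoprotein that oxidises succinate, had log2 levels of 11.51, 12.03 and 12.23 in WT and of 12.37, 12.06, 12.25 and 12.40 in SHIVA livers. WT mouse 1 stood below all others, and SHIVA mouse 2 lay below WT mouse 3. This is a log2 fold change of 0.34 (SE 0.20, adjusted p = 0.501), and 0.14 without WT mouse 1. Sdhb, the iron-sulfur subunit, had a log2 fold change of 0.01, Sdhc, a membrane anchor, of 0.01, and Sdhd, the other anchor, of -0.15.

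Complex III had 1 higher and 7 lower members, with a median of -0.06 and values between -0.17 for Uqcrb and 0.07 for Uqcrfs1, the Rieske iron-sulfur protein. Uqcrb, a small subunit at the coenzyme Q site, had log2 levels of 13.57, 13.45 and 13.09 in WT and of 12.97, 13.62, 12.91 and 13.28 in SHIVA livers, with the highest and the lowest value both in SHIVA mice. The large core proteins Uqcrc1 and Uqcrc2 had log2 fold changes of -0.03 and -0.06. None of the 8 was without overlap.

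Complex IV, cytochrome c oxidase, had 6 higher and 10 lower among 16 tested members, with a median of -0.06. The common liver forms were abundant and close to 0: Cox4i1 had a log2 fold change of -0.04, Cox5a of 0.05, Cox5b of 0.14, Cox6a1 of -0.16, Cox6b1 of -0.12, Cox7a2 of 0.15 and Cox8a of 0.06. Cox7a2l, which joins complexes into supercomplexes, had -0.02, and Cox7c, a small subunit, -0.23. Cox4nb, now named Emc8, came in through its name alone and belongs to a membrane protein complex of the endoplasmic reticulum. Its log2 fold change was -0.15.

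The tissue isoforms of complex IV, used mainly outside the liver, ran from Cox7a1, above background on all 7 arrays, to genes not detected. Cox6a2, the isoform of heart and skeletal muscle, has its probe at bases 135349160 to 135349219 of chromosome 7 (mm9). It gave log2 levels of 4.41, 4.03 and 4.50 in WT, above background on 2 of 3 arrays, and of 4.88, 5.64, 4.66 and 5.0 in SHIVA livers, above background on all 4, so that it passed the filter through its SHIVA arrays. All SHIVA mice lay above all WT mice, SHIVA mouse 2 farthest. The log2 fold change was 0.73 (SE 0.24, adjusted p = 0.257), and it was 0.26 to 0.36 when the background was handled otherwise or the deposited table was used. Muscle markers were not above background on any array for 6 of 7 genes, and their summed signal ranged from 25.4 to 33.2 in WT and from 20.9 to 36.0 in SHIVA livers.

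Cox7a1, the other isoform of muscle and brown fat, had log2 levels of 9.46, 8.39 and 8.83 in WT and of 8.99, 8.95, 8.86 and 9.59 in SHIVA livers, which overlap throughout. Its log2 fold change was 0.21 (SE 0.28). Cox4i2, the form of lung and hypoxic tissue, had -0.13, and Cox6b2, the testis form, -0.29 (SE 0.20, adjusted p = 0.575). Cox8b, the muscle form of Cox8a, and Cox7b2 were not well above background on any array, and Cox8c was so on 1 SHIVA array. These 3 genes were not tested.

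ATP synthase members had 9 higher and 8 lower values and a median of 0.01. Atp5b, the beta subunit that carries the catalytic sites of the F1 head, has its probe at bases 127527255 to 127527314 of chromosome 10 (mm9). Log2 levels were 14.34, 14.51 and 14.58 in WT and 14.78, 14.93, 14.68 and 14.84 in SHIVA livers. All 4 SHIVA mice lay above the 3 WT mice. These values give a log2 fold change of 0.33 (SE 0.14, adjusted p = 0.360), a fold of 1.26 with a 95% interval from 1.01 to 1.57, and the value ran from 0.26 to 0.39 over all alternatives. Of the other parts of the head, Atp5a1, the alpha subunit, had a log2 fold change of 0.20, Atp5c1, the gamma subunit of the rotating stalk, of 0.14, Atp5d of -0.06 and Atp5e of -0.23.

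The c subunit, which forms the rotating ring in the membrane, is made from Atp5g1, Atp5g2 and Atp5g3. Atp5g1 had log2 levels of 14.60, 14.45 and 14.51 in WT and of 14.68, 14.94, 14.58 and 14.82 in SHIVA livers, where only SHIVA mouse 3 lay below WT mouse 1. Its log2 fold change was 0.24 (SE 0.14, adjusted p = 0.536), against 0.01 for Atp5g2 and 0.04 for Atp5g3. Atp5s and Atp5sl, now named Dmac2l and Dmac2 and no subunits of the core enzyme, had 0.11 and -0.02. With the assembly factors, Ndufa4, Ndufa4l2, Cox7a2l, Cox4nb, Atp5s and Atp5sl left out, none of them counted here as a subunit of the complex its name points to, the 77 remaining members had a median log2 fold change of -0.04 and 32 were higher.

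**Figure D2:**
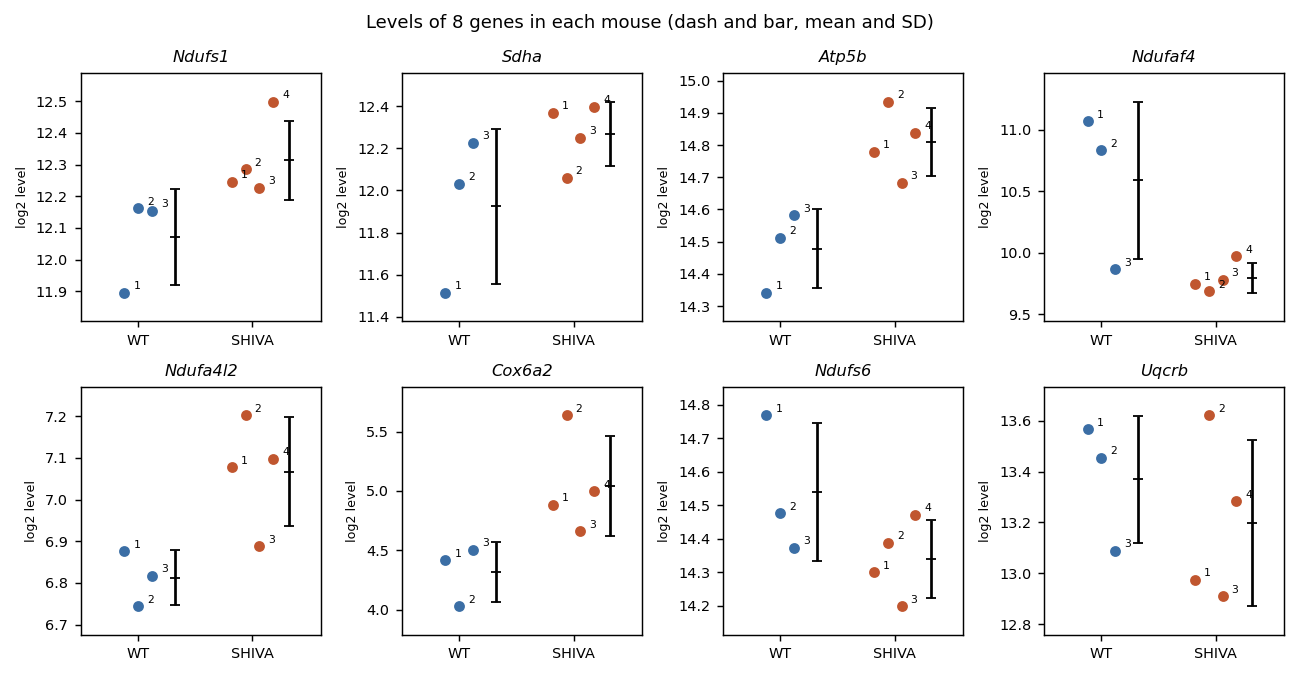
Log2 level of 8 members in each mouse (points, numbered by mouse; blue WT, n = 3; orange SHIVA, n = 4), with the mean and SD of each genotype beside them; each panel has its own axis. SHIVA mice lie above WT mice in Ndufs1, Atp5b, Ndufa4l2 and Cox6a2, WT mouse 3 lies with the SHIVA mice in Ndufaf4, and WT mouse 1 is the lowest in Sdha.

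A chosen list of 17 subunits was also read apart from the other members. It held 4 of complex I, all 4 of complex II, Uqcrc1, Uqcrc2, Uqcrfs1, Cox4i1, Cox5a, Cox5b, Atp5a1, Atp5b and Atp5c1. It is not the whole catalytic core, since it leaves out Ndufs3, Ndufs8 and Ndufv2, and the catalytic core of complex IV comes from mitochondrial DNA. Of the 17, 12 were higher in SHIVA livers (median 0.05) and 0 were called, and of the other 70 tested members 22 were higher (median -0.04). Without WT mouse 1 the counts were 13 of 17 and 53 of 70, and the shares were alike. With any other mouse left out the share stayed higher among the 17. The counts were 9 of 17 and 11 of 70 without WT mouse 3, and 12 of 17 and 35 of 70 without SHIVA mouse 3. WT mouse 1 was the highest WT mouse in 10 of the 17 and in 61 of the other 70. It was the lowest WT mouse in 6 of the 17, which were Ndufs1, Ndufv1, Sdha, Uqcrc1, Atp5a1 and Atp5b, and in 3 of the other members. The difference between the lists was not tested.

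Mice of 1 genotype differed more from each other than the genotypes did. When each of the 87 members was centred on its mean over the 7 mice, the mean of the centred log2 levels was 0.21, 0.00 and -0.18 in WT mice 1 to 3 and -0.06, 0.13, -0.16 and 0.07 in SHIVA mice 1 to 4. This gave 0.01 ± 0.20 (SD, n = 3) for WT and -0.01 ± 0.13 (SD, n = 4) for SHIVA livers. The highest mouse of each genotype was thus far above its lowest, and the means of the genotypes were nearly equal. For all genes tested the same means lay between -0.01 and 0.02 in all 7 mice, which quantile normalization brings about by giving every array the same distribution.

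The shift ran through the members and not through a few of them. WT mouse 1 was above the WT mean in 78 of 87 members and WT mouse 3 below it in 75. SHIVA mice 2 and 4 were above the SHIVA mean in 73 and 76 members, and SHIVA mouse 3 was below it in 80. These counts against the genotype mean were not made over all genes. WT mouse 1 was the highest of all 7 mice in 44 members (50.6%, against 19.7% of all genes) and SHIVA mouse 2 in 26 (29.9%, against 20.3%). WT mouse 3 was the lowest in 32 members (36.8%, against 13.7%) and SHIVA mouse 3 in 29 (33.3%, against 14.6%).

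**Figure D3:**
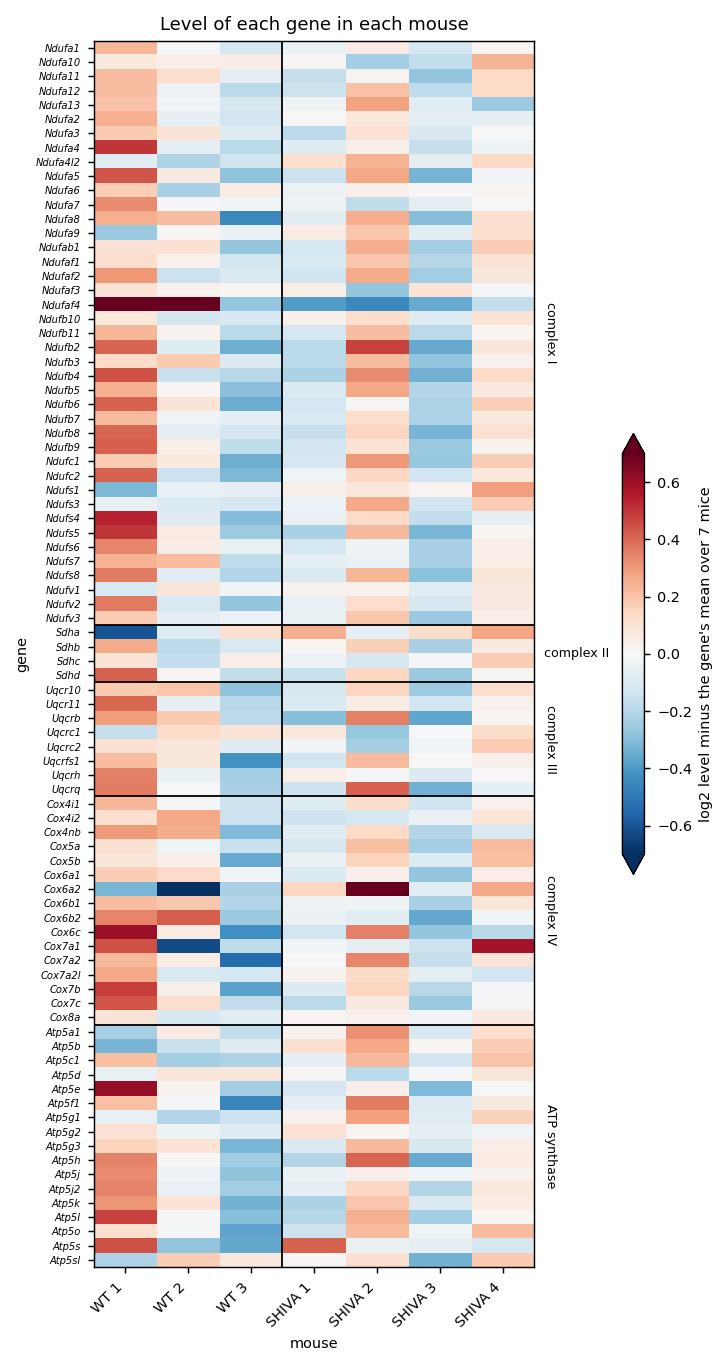
Log2 level of 86 of the 87 tested members (rows, by complex) in each mouse (columns), minus the mean of that gene over the 7 mice; red is above and blue below it, and the scale ends at -0.7 and 0.7. The column of WT mouse 1 is mostly red and those of WT mouse 3 and SHIVA mouse 3 mostly blue, with Ndufs1, Sdha and Atp5b among the rows in which WT mouse 1 is blue.

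WT mouse 1 lay above WT mouse 3 in complexes I, III, IV and ATP synthase alike. WT mouse 1 had a centred mean of 0.24 for complex I, 0.22 for complex III, 0.24 for complex IV and 0.16 for ATP synthase. WT mouse 3 had -0.15, -0.19, -0.23 and -0.22 in the same order. Complex II, with 4 genes, departed from it, with 0.04 in WT mouse 1 and -0.03 in WT mouse 3. For the chosen list of 17 subunits described above, the centred means spanned from -0.11 to 0.14 over the mice, against -0.20 to 0.26 for the other members.

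The genes of ribosomal proteins, outside oxidative phosphorylation, shared the order of the WT mice. The 79 genes of cytosolic ribosomal proteins had centred means of 0.29, -0.18 and -0.24 in WT mice 1 to 3 and of 0.03, 0.21, -0.03 and -0.09 in SHIVA mice 1 to 4. The 75 genes of mitochondrial ribosomal proteins had 0.21, 0.01 and -0.13 in WT and -0.04, 0.05, -0.10 and 0.00 in SHIVA mice. In both sets WT mouse 1 was the highest and WT mouse 3 the lowest of the WT mice, as in the members. Among SHIVA mice the lowest was mouse 3 for mitochondrial ribosomal proteins and the members, but mouse 4 for cytosolic ribosomal proteins. A shared movement was not tested. The number of a mouse is also the column of its array on the slide, and both mice with the lowest means lay in column 3. The part of array position or RNA quality in these shifts was not tested. With scaling to the 75th percentile or with the deposited table, WT mouse 1 was at 0.29 and 0.20 and SHIVA mouse 3 at -0.29 and -0.16.

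**Figure D4:**
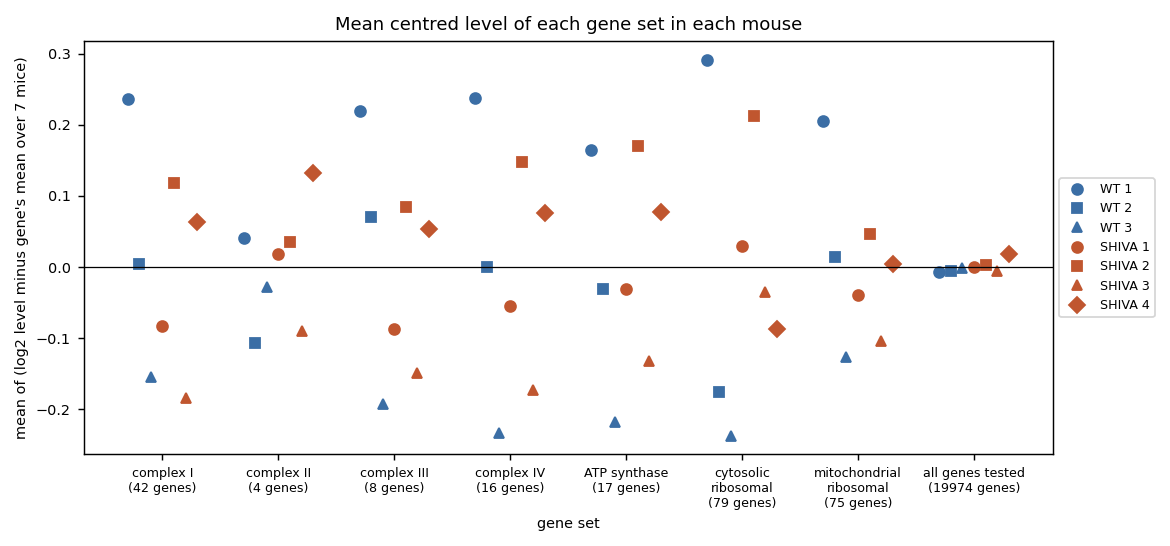
Mean centred log2 level of each gene set (columns, with the number of genes) in each mouse (blue WT, orange SHIVA; the shape gives the number of the mouse). WT mouse 1 lies highest and WT mouse 3 or SHIVA mouse 3 lowest in complexes I, III and IV, the cytosolic ribosomal proteins also place WT mouse 1 highest and WT mouse 3 lowest, and all genes tested lie near 0, as quantile normalization makes them.

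The promoters of the members were read for letters known to bind the factors that control respiratory genes. RefSeq (GRCm38.p6) listed promoters for 74 of the 90 members, 80 in all, each of 250 bases before and 50 after a start. The letters searched on both strands were GCGCANGCG for NRF1, ACTTCCGG for ETS factors such as GABPA, TNAAGGTCA for ERRα and AANATGGCG for YY1. GCGCANGCG was held by 27.5% of member promoters, against 6.25% of all 32851 promoters and 8.58% of those of protein-coding genes. AANATGGCG was held by 15% against 2.38% of all and 3.12% of protein-coding promoters. For ACTTCCGG the share of 6.25% was close to the 5.15% of protein-coding promoters (3.89% of all), and for TNAAGGTCA it was 3.75% against 1.03% (1.28% of all). At least 1 of the 4 stood in 36 of the 80 promoters, of 34 genes (45%, against 12.5% of all and 16.1% of protein-coding promoters). A match of letters is a description and not a binding site.

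The promoters of 3 members described above are shown with their matches in capitals: Sdha (chr13:74350191-74350490, minus strand), which holds the NRF1 letters 3 times, Ndufaf4 (chr4:24897833-24898132, plus strand), where the NRF1 letters match both strands in overlapping places, and Atp5b (chr10:128083057-128083356, plus strand), where the YY1 letters lie on the opposite strand from base 17 after the start. Positions are those of GRCm38.p6 and each sequence runs 5′ to 3′ along its gene.
Sdha: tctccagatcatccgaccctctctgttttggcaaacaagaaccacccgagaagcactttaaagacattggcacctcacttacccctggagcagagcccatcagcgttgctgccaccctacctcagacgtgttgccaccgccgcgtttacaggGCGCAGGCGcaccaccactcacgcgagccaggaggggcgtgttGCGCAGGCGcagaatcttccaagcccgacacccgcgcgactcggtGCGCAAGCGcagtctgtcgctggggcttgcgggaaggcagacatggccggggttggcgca
Ndufaf4: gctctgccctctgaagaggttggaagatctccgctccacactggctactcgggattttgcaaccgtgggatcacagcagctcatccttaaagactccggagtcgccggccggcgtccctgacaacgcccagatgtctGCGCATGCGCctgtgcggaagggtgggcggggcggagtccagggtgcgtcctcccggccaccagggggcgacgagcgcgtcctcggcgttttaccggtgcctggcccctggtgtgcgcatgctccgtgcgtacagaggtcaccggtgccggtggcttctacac
Atp5b: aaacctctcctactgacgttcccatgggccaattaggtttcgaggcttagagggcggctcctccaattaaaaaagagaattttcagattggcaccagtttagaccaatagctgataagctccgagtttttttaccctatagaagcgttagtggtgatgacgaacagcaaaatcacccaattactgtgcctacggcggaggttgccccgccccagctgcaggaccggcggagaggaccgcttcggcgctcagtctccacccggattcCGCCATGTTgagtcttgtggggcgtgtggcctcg

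The subunits encoded by mitochondrial DNA join the nuclear ones in complexes I, III, IV and ATP synthase. Of 12 on the array 0 were called, 11 had a lower mean in SHIVA livers, and the median log2 fold change was -0.11. For the remaining gene, mt-Nd4, it was 0.00, with the spot of SHIVA mouse 4 left out of the fit. The order of the mice was not that of the nuclear members, with centred means of 0.16, 0.21 and -0.05 in WT and of -0.13, -0.22, 0.05 and -0.03 in SHIVA mice, the lowest in SHIVA mouse 2. The largest difference was that of mt-Nd1, a membrane subunit of complex I, with log2 levels of 13.83, 13.94 and 13.25 in WT and 13.22, 12.52, 13.48 and 13.27 in SHIVA livers, where SHIVA mouse 3 lay above WT mouse 3. Its log2 fold change was -0.55 (SE 0.26, adjusted p = 0.415).

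In 1 of the 12, mt-Atp8, a small subunit of ATP synthase, WT and SHIVA values did not overlap, a share no higher than the 12.2% over all genes. Its log2 levels were 14.45, 14.53 and 14.48 in WT and 14.32, 14.08, 14.36 and 14.30 in SHIVA livers, and its log2 fold change was -0.22 (SE 0.14, adjusted p = 0.545). The files place its probe not on the mitochondrial genome but on chromosome 1 of mm9, at chr1:24621488-24621547, and those of mt-Nd3, mt-Nd4l, mt-Co2 and mt-Co3 on the same stretch. Nuclear DNA there holds a copy of mitochondrial sequence, and the array cannot tell the sources apart. The probe is shown because of this placement.
mt-Atp8: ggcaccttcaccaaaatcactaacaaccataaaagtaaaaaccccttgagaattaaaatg

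The electron carriers and the enzymes that feed electrons into the chain numbered 9, of which 4 were higher, 5 lower and 0 called, with a median of -0.14. Cycs, the cytochrome c that links complexes III and IV, had log2 levels of 12.74, 12.29 and 11.65 in WT and 11.58, 12.33, 11.51 and 12.05 in SHIVA livers, with WT mouse 1 highest and SHIVA mouse 3 lowest. Its log2 fold change was -0.36 (SE 0.30, adjusted p = 0.656). Values did not overlap between the genotypes in 3 of the 9, against 12.2% of all genes. Gpd2, the glycerol-3-phosphate dehydrogenase of the inner membrane, had log2 levels of 7.59, 8.40 and 7.60 in WT and 6.80, 7.14, 7.07 and 6.73 in SHIVA livers, which gives a log2 fold change of -0.93 (SE 0.23, adjusted p = 0.16). Sqrdl, which oxidises sulfide and passes its electrons to coenzyme Q, had 12.20, 12.18 and 12.57 in WT and 13.20, 13.11, 12.91 and 12.93 in SHIVA livers, for a log2 fold change of 0.72 (SE 0.16, adjusted p = 0.132, and 0.0454 without WT mouse 3). Prodh, the proline dehydrogenase, had a log2 fold change of -0.47 (SE 0.20, adjusted p = 0.369).

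For coenzyme Q synthesis and handling 11 genes were tested, with 7 higher, 4 lower, 0 called and a median of 0.02. Coq10b, thought to help deliver coenzyme Q to the chain, had log2 levels of 6.39, 6.59 and 6.61 in WT and 7.37, 7.05, 7.30 and 7.36 in SHIVA livers. The genotypes did not overlap, and the log2 fold change was 0.74 (SE 0.15, adjusted p = 0.101). The tested genes with the names Coq2 to Coq9 lay between -0.17 for Coq5 and 0.26 for Coq7. Adck4, of the same list, lay outside that range at 0.58 (SE 0.22, adjusted p = 0.302), with genotypes that overlapped.

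Assembly factors outside the name rule numbered 29 tested, with 12 higher, 17 lower, 0 called and a median of -0.04. The lowest was Cox10, which makes heme for complex IV, at -0.54 (adjusted p = 0.407), followed by Sco2, which delivers copper to complex IV, at -0.45 (adjusted p = 0.466). The highest was Nubpl, which inserts iron-sulfur clusters in complex I, at 0.27 (adjusted p = 0.605). WT and SHIVA values did not overlap in 2 of the 29, against 12.2% of all genes, and these were Tmem186, a complex I assembly factor, at -0.39 and Cox15, which completes heme A, at -0.22.

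Of the regulators of mitochondrial genes 20 were tested, with 6 higher, 14 lower and 0 called, at a median of -0.11. Ppargc1a, the coactivator that fasting raises in liver, had log2 levels of 7.68, 8.02 and 8.39 in WT and of 8.68, 6.62, 8.81 and 9.29 in SHIVA livers. SHIVA mouse 2 was the lowest of all mice and the other 3 SHIVA mice the highest, with a log2 fold change of 0.32 (SE 0.56, adjusted p = 0.855). Tfam, which packages mitochondrial DNA and starts its transcription, had a log2 fold change of -0.13 (SE 0.16). Esrrg, an orphan nuclear receptor for which respiratory genes are targets, was well above background on 3 of 3 WT arrays at a mean log2 level of 4.82 and on no SHIVA array. It passed the filter on dim genes through the WT arrays alone, where it was high, so that its p-values rest on that filter. The fit gave a log2 fold change of -2.20 (adjusted p = 0.0592). With each SHIVA value raised to the lowest signal marked as above background on its array, SHIVA livers were 2.85-fold lower. That fold is not a lower bound, since undetected probes can also lie above that signal. With the mean signal and with the deposited table the log2 fold change was smaller, at -0.78 in both (adjusted p = 0.0218 and 0.0215). Without SHIVA mouse 4 it was -2.45 (adjusted p = 0.0487). Esrra, a related receptor, had a log2 fold change of -0.10. Nrip1, next after Esrrg in size of change among the 20, had -0.54 (SE 0.22, adjusted p = 0.343), with genotypes that overlapped.

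The tricarboxylic acid cycle makes the NADH and succinate that the chain uses, and of its 14 genes 8 were higher, 6 lower and 0 called, with a median of 0.12. Cs, the citrate synthase, had log2 levels of 12.17, 12.26 and 12.18 in WT and 11.72, 11.96, 11.77 and 11.86 in SHIVA livers, for a log2 fold change of -0.37 (SE 0.13, adjusted p = 0.276). Fh1, the fumarase that acts next after complex II, had 12.44, 12.68 and 12.11 in WT and 13.02, 13.10, 12.75 and 12.87 in SHIVA livers, for a log2 fold change of 0.53 (SE 0.18, adjusted p = 0.254). These were the 2 of 14 genes of the cycle whose genotypes did not overlap, a share close to the 12.2% of all genes. The carriers of ADP, ATP and phosphate and their relatives had 4 higher and 4 lower among 8 tested, 0 called, and a median of 0.04.

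Markers of other cells of the liver were also read, and their part in the values above was not tested. Erythroid markers were higher in 5 of 5 tested genes (median log2 fold change 0.46, 0 called), with a summed signal of 142104 to 185718 in WT and 180024 to 295120 in SHIVA livers. Kupffer cell and macrophage markers were higher in 6 of 6 (median 0.35, 0 called), with sums of 10306 to 21643 and 13845 to 25103, and neutrophil markers in 5 of 5 (median 1.13, 0 called), with sums of 412 to 1184 and 341 to 2198. Of the neutrophil markers, Ngp and Ltf were above background on 0 WT and 3 SHIVA arrays and passed the filter through SHIVA arrays alone, and the other 3, S100a8, S100a9 and Camp, had log2 fold changes of 1.02 to 1.13. Over the neutrophil markers SHIVA mouse 4 had a centred mean of -1.76, below WT mice 1 to 3 at -0.39, -1.41 and -0.77. SHIVA mice 1 to 3 had 1.43, 1.14 and 1.76. Endothelial markers were higher in 3 of 6, with a median of 0.01, and bile duct markers in 1 of 4, with a median of -0.64. Fat markers were not above background on any array for 4 of 6 genes, and exocrine pancreas markers for 3 of 6.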

How the data were processed

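The authors deposited the Agilent Feature Extraction 10.5.1.1 output of each single-colour array, whose processed spot intensities were detrended within the array without subtraction of a local background, and quantile-normalized log2 values of all arrays in a table. Array positions are those of mm9. From the deposited intensities, spots marked as outliers (120 to 163 per array) were dropped, processed signals of the 7 arrays were brought to a common distribution (quantile normalization) and log2-transformed, and spots of a probe were averaged. Each gene name was read by its probe of highest mean. Genes well above background on at least 3 of 7 arrays were fitted with limma 3.58.1 in R 4.3.3 (lmFit, eBayes), SHIVA over WT; calls needed a p under 0.05 after Benjamini-Hochberg adjustment over all 19974 genes. The deposited detection mark of each spot (0 or 1) served as the filter.

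The members and lists were chosen with earlier results of these data known. Named members are the 3 with the largest change in each complex, those without overlap, 17 chosen subunits, the tissue isoforms and the assembly factors. Of these, 1 gene enters the counts and medians but is not reported singly here. Gpd2, Sqrdl, Prodh, Coq10b, Coq2 to Coq9, Cox10, Sco2, Tmem186, Cox15, Nubpl, Esrrg, Esrra, Cs, Fh1, mt-Nd1, mt-Nd4, mt-Atp8, the ribosomal protein genes and further single members were named after their values were seen. The same holds for Adck4 and Nrip1. All 90 members were matched to RefSeq genes (GRCm38.p6), 4 through an older symbol. The fit was tested on simulated data, where 86.5% of 200 genes changed by a log2 value of 2 were called among 19974 genes. Alternatives were 75th percentile scaling, the mean spot signal, normexp with an offset of 50, the deposited table, other filters, the mean of all probes, a replicate block, the methods' t-test and leaving out each mouse. The means per mouse under other scalings and for other gene groups were added after the data were seen.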

Additional observations from a re-analysis of the deposited data

Results flagged for a closer look

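Among the 49 values examined, a single SHIVA mouse stood far from the other 3 in 2, where 2.45 are expected by chance. Cox6b2, the testis form of a complex IV subunit, had a log2 level of 6.46 in SHIVA mouse 3, against 6.75 to 6.80 in the others. Tfam, the transcription factor of mitochondrial DNA, had a log2 level of 10.53 in SHIVA mouse 2, against 10.27 to 10.28 in the others.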

How the results depend on the processing

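The number of members called was 0 under every alternative except 1 without WT mouse 3, so that it ranged from 0 to 1 when mice were left out. Over all genes, where 75 were called (37 higher, 38 lower), the count was 142 with the mean signal (62 higher, 80 lower) and 142 with the deposited table (63 and 79), 13 without a filter on dim probes (4 and 9) and 0 with the methods' t-test (0 and 0, with 2299 at an unadjusted p under 0.05). Leaving out single mice gave 3 to 414 calls, 3 to 218 of them higher and 0 to 196 lower. The count was 3 without WT mouse 1, 8 without WT mouse 2, 414 without WT mouse 3, 7 without SHIVA mouse 1 and 13 without SHIVA mouse 3. Members higher without overlap numbered 2 with scaling to the 75th percentile, 4 to 11 when a mouse was left out (11 without WT mouse 1, 7 without SHIVA mouse 3), and members lower without overlap 0 to 10 (10 without WT mouse 3, 3 without SHIVA mouse 4, 1 without WT mouse 2). The regulators had 1 call (Esrrg) with the mean signal and 1 with the deposited table and 0 to 1 when a mouse was left out, and the electron carriers 0 to 1 (Sqrdl). The complex II median ran from -0.069 to 0.10. The causes were not tested.

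Mice of the 2 genotypes share numbers, and same-numbered mice had deviations that correlated at -0.05, 0.01 and 0.24. For mice of different numbers the correlations ran from -0.19 to 0.20. These values are too few to decide whether the numbers pair the mice. With the replicate number as a block, 32 genes were called (21 higher, 11 lower) and 0 members. SHIVA mouse 4 alone has the number 4, so that the block sets it aside in the fold changes. With the block and without SHIVA mouse 4, the members had the same median of -0.0587, with 28 higher. The block is thus no separate check on the fold changes from leaving out that mouse. Under the block the log2 fold change was -0.0043 for Sdhb, -0.0436 for Sdhc, -0.0187 for Cox5a and 0.0201 for Cox7a2l, with signs opposite to those reported.

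Signs of small values also turned elsewhere. Sdhb was -0.031 with the mean of all probes, and Uqcrq 0.0245 with the mean signal, 0.0245 with normexp and 0.0354 with the deposited table. Under 75th percentile scaling, the mean signal, normexp and the deposited table, Ndufv1 was -0.0042, -0.0673, -0.0671 and -0.0481, and Sdhc -0.0070, -0.0356, -0.0352 and -0.0261. Uqcrc1 was 0.0153 with the mean signal, 0.0152 with normexp and 0.0176 with the deposited table. With single mice left out, the log2 fold change changed sign for 21 genes, in ranges of -0.42 to 0.013 (Atp5e), -0.026 to 0.069 (Atp5g2), -0.11 to 0.13 (Atp5g3), -0.13 to 0.063 (Cox4i1), -0.019 to 0.13 (Cox5a), -0.0026 to 0.22 (Cox5b), -0.045 to 0.49 (Cox7a1), -0.075 to 0.31 (Cox7a2), -0.087 to 0.11 (Cox7a2l), -0.28 to 0.064 (Ndufa4), -0.082 to 0.052 (Ndufaf1), -0.12 to 0.11 (Ndufaf2), -0.0202 to 0.077 (Ndufv1), -0.072 to 0.15 (Sdhb), -0.066 to 0.065 (Sdhc), -0.28 to 0.012 (Sdhd), -0.21 to 0.088 (Uqcr11), -0.12 to 0.049 (Uqcrc1), -0.13 to 0.011 (Uqcrc2), -0.12 to 0.20 (Uqcrfs1) and -0.23 to 0.082 (Uqcrq). For 366 values of named genes under the other alternatives and 263 with a mouse left out, the sign and the side of the threshold were as reported. With 3 and 4 mice, most genes changed by a log2 value of 0.5 or 1 were not called in the simulated data, and Cox6a2, Esrrg and Sox17 lie close to the background.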
